A study of Mus musculus with 30 samples.

Results

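The genes described here are 10 mouse genes through which an antibody bound to its target can act on cells: the Fcγ receptors *Fcgr1*, *Fcgr2b*, *Fcgr3* and *Fcgr4*, the signalling chain gene *Fcer1g*, the neonatal Fc receptor gene *Fcgrt*, and the complement genes *C1qa*, *C1qb*, *C1qc* and *C3*. They were chosen by name. All 10 have a row among the 49671 genes counted in the peptide study and among the 55263 annotated genes to which the transcripts of the antibody study were summed. RNA from the left ventricle of wild-type male mice was sequenced as stranded total RNA in both studies, and the study's methods give the strain of all mice as C57BL6J, which the labels also write C57BL6. In the peptide study, mice aged 12 weeks at the start by the labels, and up to that age by the study's methods, received recombinant human Aβ42 (7 mice) or its scrambled control peptide ScrAβ42 (7 mice) by daily intraperitoneal injection for 4 weeks, at 1 mg per day by the labels and at a dose in micrograms by the study's methods. In the antibody study, mice aged 12 weeks at their baseline examination by the study's methods received the Aβ neutralising antibody 3D6 (8 mice) or a control antibody (8 mice). The series description gives these mice as having received Aβ42 as well, whereas the study's text describes a high-fat diet given together with the antibody, and the labels do not settle which holds. Each heart came from 1 labelled mouse. The studies used different mice and were normalized separately, so that levels set side by side across them are not a comparison of treatments.

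Antibodies carry a constant Fc part that immune cells and complement read. The Fcγ receptors of myeloid cells bind the Fc part of IgG: those encoded by *Fcgr1*, *Fcgr3* and *Fcgr4* activate the cell and depend on the FcRγ chain, the product of *Fcer1g*, whereas the receptor encoded by *Fcgr2b* inhibits it. The product of *Fcgrt*, FcRn, binds IgG and albumin inside cells and returns them to the circulation, C1q starts the classical complement pathway on antibody-coated surfaces and is made of the chains encoded by *C1qa*, *C1qb* and *C1qc*, and C3 is the protein on which the complement pathways converge. Cardiac macrophages are known as a main source of C1q and of the Fcγ receptors in the heart, and FcRn is made by endothelial cells among others.

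Hearts of the peptide study had 4478991 to 6015767 counts, with 12.9% to 22.2% of them on mitochondrial genes. Those of the antibody study had 6397192 to 8310478 counts, with 25.9% to 37.8% on mitochondrial genes. The cardiomyocyte gene *Myh6* was abundant in every heart, at no less than 23644 CPM (counts scaled to the size of the library, TMM normalized) with the peptides and 23136 CPM with the antibodies. The macrophage gene *Csf1r* had 36.3 to 96.6 CPM in the peptide hearts and 16 to 32.4 CPM in the antibody hearts. The neutrophil gene *Ly6g* had at most 1 count in any heart of the peptide study and 0 in all hearts of the antibody study, and the T cell gene *Cd3e* had at most 3 counts. Other markers of these cells were counted more, and in the peptide study *S100a9* reached 18 counts and *Cd4* 13. The 6 neutrophil markers summed to at most 8.01 CPM with the peptides and 1.43 CPM with the antibodies. The 7 T and NK cell markers summed to at most 4.05 and 2.32 CPM. Of the peptide study's hearts, 1 given ScrAβ42 and 4 given Aβ42 summed to over 1000 CPM of the 5 atrial markers, and this sum had a median of 10.5 CPM with ScrAβ42 and 1154 CPM with Aβ42. In the antibody study it had a median of 2.87 CPM with control antibody and 98.2 CPM with 3D6, and reached 2768 and 666 CPM. These hearts enter the comparisons as labelled, and fits without those of the peptide study are given for *C3* and for the members together. Of the antibody hearts 1, that of control mouse 15, was over 1000 CPM, and without it the log2 fold changes with 3D6 were 0.066 for *C3* and between -0.28 and -0.09 for the other 7 tested members.

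RefSeq start regions (GRCm38.p6) were matched for 9 of the 10 genes, all but *C1qa*. Of these, 4 are printed, those of 2 C1q genes, of 1 activating receptor gene and of *C3*, as examples of windows that held a motif searched for. Each line runs 5′ to 3′ in the direction of the gene, from 200 bases before to 20 bases after the start, all on the minus strand, and capitals mark matches to the motifs searched on both strands.
*C1qb*, chr4:136886181-136886400: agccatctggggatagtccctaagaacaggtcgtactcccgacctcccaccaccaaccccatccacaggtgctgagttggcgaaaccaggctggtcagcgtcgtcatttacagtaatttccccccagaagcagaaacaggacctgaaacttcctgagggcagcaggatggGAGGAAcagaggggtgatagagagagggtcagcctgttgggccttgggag
*C1qc*, chr4:136892895-136893114: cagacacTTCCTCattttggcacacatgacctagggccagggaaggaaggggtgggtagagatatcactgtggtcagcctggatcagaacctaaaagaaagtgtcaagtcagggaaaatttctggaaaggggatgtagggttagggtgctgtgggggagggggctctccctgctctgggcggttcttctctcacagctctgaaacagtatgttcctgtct
*Fcgr3*, chr1:171059384-171059603: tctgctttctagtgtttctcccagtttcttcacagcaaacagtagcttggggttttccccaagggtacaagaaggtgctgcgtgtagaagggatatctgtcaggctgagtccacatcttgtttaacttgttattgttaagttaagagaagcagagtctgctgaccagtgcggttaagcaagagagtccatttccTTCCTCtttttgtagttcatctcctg
*C3*, chr17:57228117-57228336: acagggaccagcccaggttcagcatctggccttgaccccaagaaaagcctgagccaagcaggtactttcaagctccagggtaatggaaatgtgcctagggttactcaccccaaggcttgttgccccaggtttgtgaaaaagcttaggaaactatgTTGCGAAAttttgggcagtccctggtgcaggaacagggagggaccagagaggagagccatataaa
The letters GAGGAA, the core bound by the myeloid factor PU.1, stood at -30 to -25 in *C1qb*, and on the other strand at -193 to -188 in *C1qc* and at -6 to -1 in *Fcgr3*, which has a second RefSeq start a few bases away. Motifs were counted over the whole 300-base RefSeq window, which runs further than the lines printed to either side. Of the 9 genes, 5 held GAGGAA there (*Fcgr1*, *Fcgr3*, *Fcgr4*, *C1qb* and *C1qc*), as did 28.3% of all 32851 windows. The C/EBP letters TTGCGNAA stood at -45 to -38 in *C3* and in 0.798% of all windows. *Fcgr1* held the interferon-γ-activated site TTCNNNGAA at -109 to -101 (8.3% of windows), and *Fcgr4* held the interferon-stimulated response element, as a pair of GAAA blocks, at -73 to -64 (3.44% of windows). The windows of *Fcgr2b*, *Fcer1g* and *Fcgrt* held none of these letters, which says nothing of the factors themselves.

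Levels of different genes were set on one scale by dividing CPM by the length of the gene's exons. On this scale *C3* stood first in both groups of the peptide study, at 67.4 ± 38.7 CPM per kb with ScrAβ42 and 68.1 ± 40.4 with Aβ42 (SD, n = 7), followed by *Fcgrt* at 42.4 ± 5.33 and 43.8 ± 4.16. The order of these genes was not the same in every heart, since *C3* exceeded *Fcgrt* in 4 of 7 hearts of each group. In the antibody study *Fcgrt* stood first, at 30.8 ± 5.97 CPM per kb with control antibody and 28.7 ± 4.4 with 3D6 (SD, n = 8), and *C3* lay among the C1q genes at 20.5 ± 4.92 and 20.5 ± 3.91. Here too the first place was not the same in every heart, since *Fcgrt* exceeded *C1qa*, the next gene, in 6 of 8 hearts of each group. *C1qa* and *C1qb* were at 31.5 and 31.1 CPM per kb with ScrAβ42, where *C1qa* was the higher in 4 of 7 hearts, and at 32.1 and 29.8 with Aβ42. With the antibodies *C1qa* was the higher in all 8 hearts of each group, at 30.4 against 24 CPM per kb with control antibody and 25.5 against 19.6 with 3D6. *C1qc* was lower than both in every heart on this scale, at 17.9 ± 5.57 with ScrAβ42. This depends on the length used, since the exons of *C1qc* cover 1931 bases and its transcripts counted in the antibody study average 1201. For *C1qa* and *C1qb* both lengths are the same (1040 and 1088 bases). With the counted length the mean of *C1qc* exceeded that of *C1qb* with 3D6, though not with control antibody. *Fcer1g* and *Fcgr3* followed, at 7.22 ± 2.19 and 7.32 ± 2.26 CPM per kb with ScrAβ42, and their order differed between hearts in all 4 groups. The inhibitory *Fcgr2b* lay below the activating *Fcgr3* in every heart of all 4 groups, at 2.00 ± 0.581 CPM per kb with ScrAβ42. *Fcgr1* and *Fcgr4* were last, between 0.125 and 0.636 CPM per kb in the group means. The exon length of *Fcgr2b*, 5790 bases, includes rarely counted transcripts. With the mean length of the transcripts counted, 2348 bases, its level with control antibody was 2.41 rather than 0.978 CPM per kb, against 4.87 for *Fcgr3* on the same scale, and the length rule thus moves the distance between them.

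**Figure D1:**
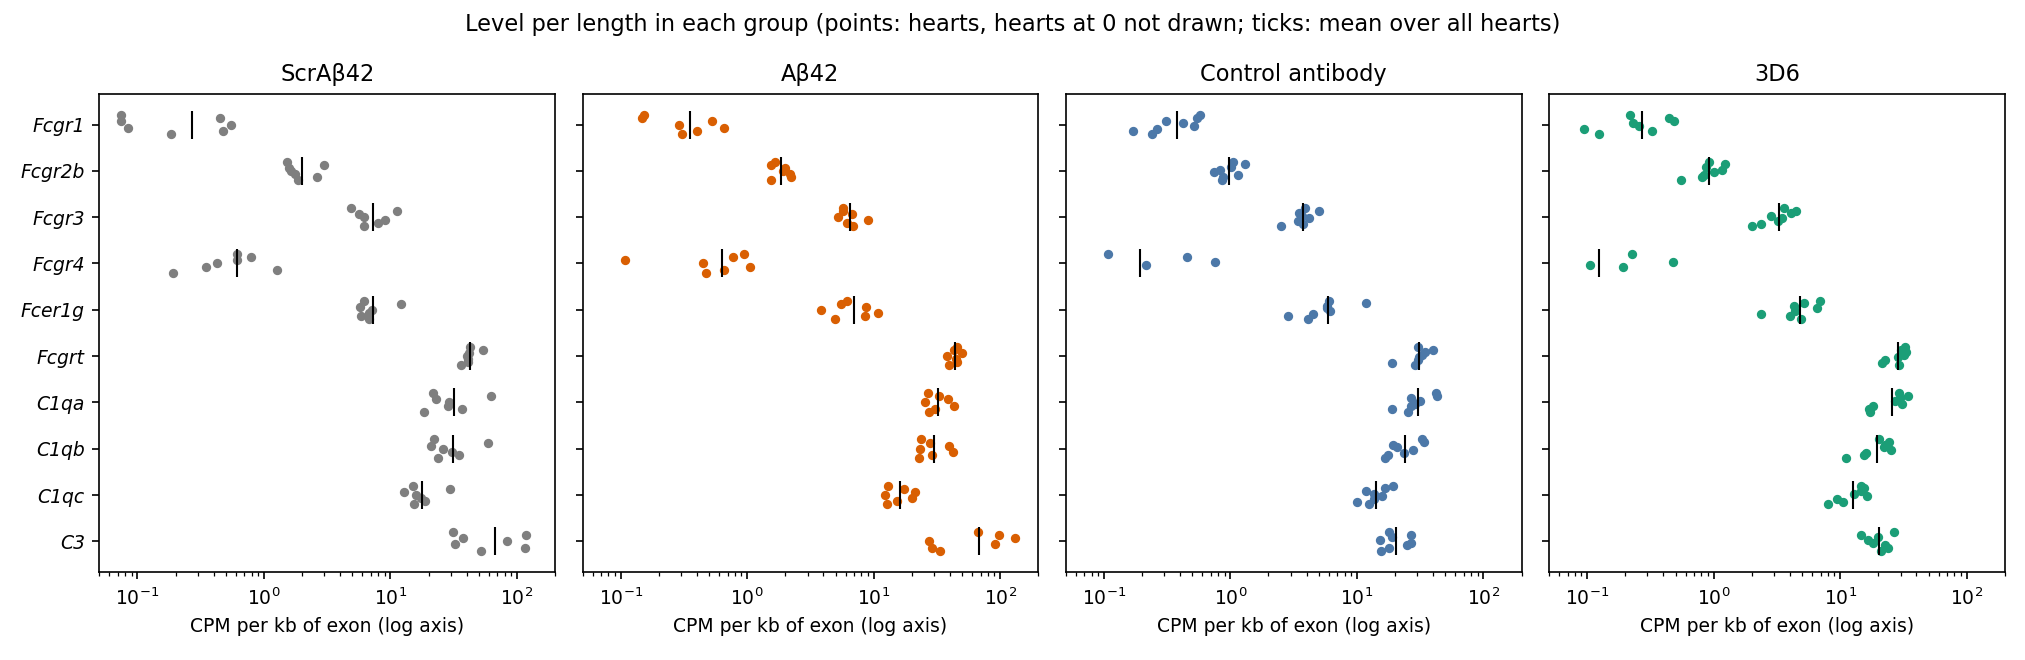
Level of each of the 10 genes per kb of exon (log axis) in the 4 groups; points are hearts, black ticks the group means, and the hearts with 0 counts of *Fcgr4* in the antibody study are not drawn. The genes span from below 1 CPM per kb for *Fcgr1* and *Fcgr4* to 67.4 for the mean of *C3* with ScrAβ42, and *Fcgr2b* lies below *Fcgr3* in every group.

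The activating receptors *Fcgr1* and *Fcgr4* were at the limit of detection. *Fcgr1*, the high-affinity receptor (chromosome 3, 96282909 to 96293969), had 1 to 10 counts per heart with the peptides (median 2 with ScrAβ42 and 4 with Aβ42) and 2 to 11 with the antibodies (median 6.5 with control antibody and 4.5 with 3D6). *Fcgr4* (chromosome 1, 171018920 to 171029761) had between 1 and 9 counts in the peptide study. In the antibody study it had between 0 and 7, with 0 in 4 of 8 hearts of each group. A count of 0 allows up to 0.361 to 0.469 CPM, taking 3 counts of the total of every library of that study, not only those at 0. Both genes missed the filter of a mean of 10 counts per heart and were not tested with edgeR. A two-sided exact permutation test on log2 CPM gave p = 0.345 for *Fcgr1* and p = 0.890 for *Fcgr4* with Aβ42, and p = 0.166 and p = 0.693 with 3D6. No difference in these genes was detected, and the size of difference that could be seen at this depth was not tested.

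*Fcgr3*, the activating low-affinity receptor gene (chromosome 1, 171051174 to 171064935), had a lowest, median and highest level of 8.49, 10.7 and 19.7 CPM with ScrAβ42 and of 9.15, 10.7 and 15.6 CPM with Aβ42. The ranges overlapped and the medians were close, and the highest of all 14 was a ScrAβ42 heart. The log2 fold change was -0.17 with Aβ42 (standard error 0.18, 95% interval -0.55 to 0.21), and the edgeR adjusted p, over all genes tested, was 0.905. In the antibody study *Fcgr3* had 4.35, 6.49 and 8.67 CPM with control antibody and 3.50, 5.79 and 7.82 CPM with 3D6. Of the hearts given 3D6, 6 of 8 lay below the control median and 2 below every control heart. The log2 fold change was -0.20 (standard error 0.16, interval -0.54 to 0.14, edgeR adjusted p = 0.946).

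*Fcgr2b*, the inhibitory receptor gene (chromosome 1, 170958617 to 170976547), had 8.88, 10.2 and 17.4 CPM with ScrAβ42 and 8.86, 11.2 and 12.8 CPM with Aβ42. It had 4.30, 5.49 and 7.53 CPM with control antibody and 3.19, 5.21 and 7.10 CPM with 3D6. The ranges overlapped in both studies, with 2 of 7 hearts given Aβ42 and 1 of 8 given 3D6 below every control heart. The log2 fold changes were -0.11 with Aβ42 (standard error 0.16, interval -0.46 to 0.24) and -0.08 with 3D6 (standard error 0.16, interval -0.41 to 0.25). *Fcgr2b* and *Fcgr3* share sequence: 233 of the 1733 stretches of 31 bases in the annotated transcripts of *Fcgr3* (13.4%) also occur in *Fcgr2b*, so that reads from there can be assigned to either gene. No other pair of the 10 genes shared such a stretch.

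*Fcer1g*, whose product carries the signal of the activating receptors (chromosome 1, 171229572 to 171234365), had 5.02, 5.88 and 10.5 CPM with ScrAβ42 and 3.36, 5.34 and 9.52 CPM with Aβ42. It had 2.48, 5.07 and 10.4 CPM with control antibody and 2.07, 4.08 and 6.07 CPM with 3D6. With Aβ42, 3 of 7 hearts lay below every ScrAβ42 heart. With 3D6, 6 of 8 lay below the control median, and the control value of 10.4 CPM came from mouse 22 alone, the next control heart being at 5.38 CPM. The log2 fold changes were -0.06 with Aβ42 (standard error 0.23) and -0.29 with 3D6 (standard error 0.25, interval -0.81 to 0.23, edgeR adjusted p = 0.946). The value with 3D6 was -0.06 without control mouse 22, the smallest in size of those with 1 heart left out, which reached -0.39, and 0.05 with the mitochondrial share as a covariate.

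*Fcgrt* (chromosome 7, 45092990 to 45103851) had the lowest coefficient of variation of the 10 genes with ScrAβ42 (12.6%), Aβ42 (9.49%) and 3D6 (15.3%). With control antibody it had 19.4%, beside 18.8% for *Fcgr3*. Its lowest, median and highest levels were 75.7, 86.9 and 112 CPM with ScrAβ42 and 80.3, 94.8 and 106 CPM with Aβ42. Of the hearts given Aβ42, 5 of 7 lay above the ScrAβ42 median and none outside the ScrAβ42 range. Antibody-treated hearts had 39.7, 64.2 and 83.8 CPM with control antibody and 45.2, 62.2 and 69.3 CPM with 3D6. The log2 fold changes were 0.05 with Aβ42 (standard error 0.08, interval -0.13 to 0.23) and -0.10 with 3D6 (standard error 0.13, interval -0.36 to 0.17).

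The 3 C1q genes lie side by side on the minus strand of chromosome 4, *C1qb* from 136880129 to 136886187, *C1qc* from 136889804 to 136893065 and *C1qa* from 136895917 to 136898803. With ScrAβ42, *C1qa* had a lowest, median and highest level of 19.3, 29.8 and 65.3 CPM, and with Aβ42 26.3, 32.0 and 44.7 CPM. *C1qb* had 23, 28.5 and 64.3 CPM and 25.0, 30.4 and 46.5 CPM, and *C1qc* had 24.9, 30.8 and 57.6 CPM and 23.9, 29.7 and 41.1 CPM. The widest span was that of the ScrAβ42 group, where 1 heart was the highest for each of the 3 chains. The log2 fold changes with Aβ42 were 0.02 for *C1qa* (standard error 0.23), -0.06 for *C1qb* (standard error 0.23) and -0.16 for *C1qc* (standard error 0.18), with intervals that together ran from -0.54 to 0.51.

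In the antibody study, *C1qa* had 19.5, 28.8 and 44.9 CPM with control antibody and 17.6, 29.5 and 35.8 CPM with 3D6. *C1qb* had 18, 24 and 36.7 CPM and 12.1, 23.1 and 27.4 CPM, and *C1qc* had 19.3, 26.3 and 37.3 CPM and 15.5, 26.4 and 31.4 CPM. Hearts given 3D6 fell into a lower part (mice 4, 7 and 12, at 17.6 to 18.8 CPM of *C1qa*, below every control heart) and an upper part (5 hearts at 28.5 to 35.8 CPM, within the control range). The log2 fold changes were -0.25 for *C1qa* (standard error 0.18, interval -0.63 to 0.13), -0.29 for *C1qb* (standard error 0.18, interval -0.66 to 0.08) and -0.16 for *C1qc* (standard error 0.15, interval -0.48 to 0.17), each with an edgeR adjusted p of 0.946. The smallest unadjusted p among the members in either study was that of *C1qb* with 3D6, 0.120. In mice 4, 7 and 12 mitochondrial genes took 37.8%, 33.9% and 35.2% of the counts, where the medians were 33.2% with 3D6 and 31.2% with control antibody, and the control heart lowest for *C1qa*, mouse 8 at 19.5 CPM, had 37.7%. The order was not strict, since 3D6 mouse 16 had 33.7% with 31.9 CPM of *C1qa*, and control mouse 3 had 35.2% with 26.4 CPM. With the mitochondrial share as a covariate the log2 fold changes with 3D6 were -0.03 for *C1qa*, -0.09 for *C1qb* and -0.002 for *C1qc*.

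*C3* (chromosome 17, 57203970 to 57228136) varied more between hearts of the peptide study than any other tested member. It had a lowest, median and highest level of 162, 265 and 611 CPM with ScrAβ42 and of 140, 341 and 675 CPM with Aβ42, a coefficient of variation of 57.5% and 59.3%, where counting alone would give 2.30% and 2.23%. High and low hearts occurred in both groups. The log2 fold change was 0.02 with a standard error of 0.41 (interval -0.86 to 0.89), which spans ratios from 0.55 to 1.86. It was -0.53 (standard error 0.41) without the 5 hearts high in atrial markers and -0.85 (standard error 0.36) with the atrial markers as a covariate. In the antibody hearts *C3* had 78.7, 94.9 and 138 CPM with control antibody and 75.7, 106 and 137 CPM with 3D6. These groups overlapped almost fully, and the log2 fold change was -0.01 (standard error 0.15, interval -0.31 to 0.30).

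**Figure D2:**
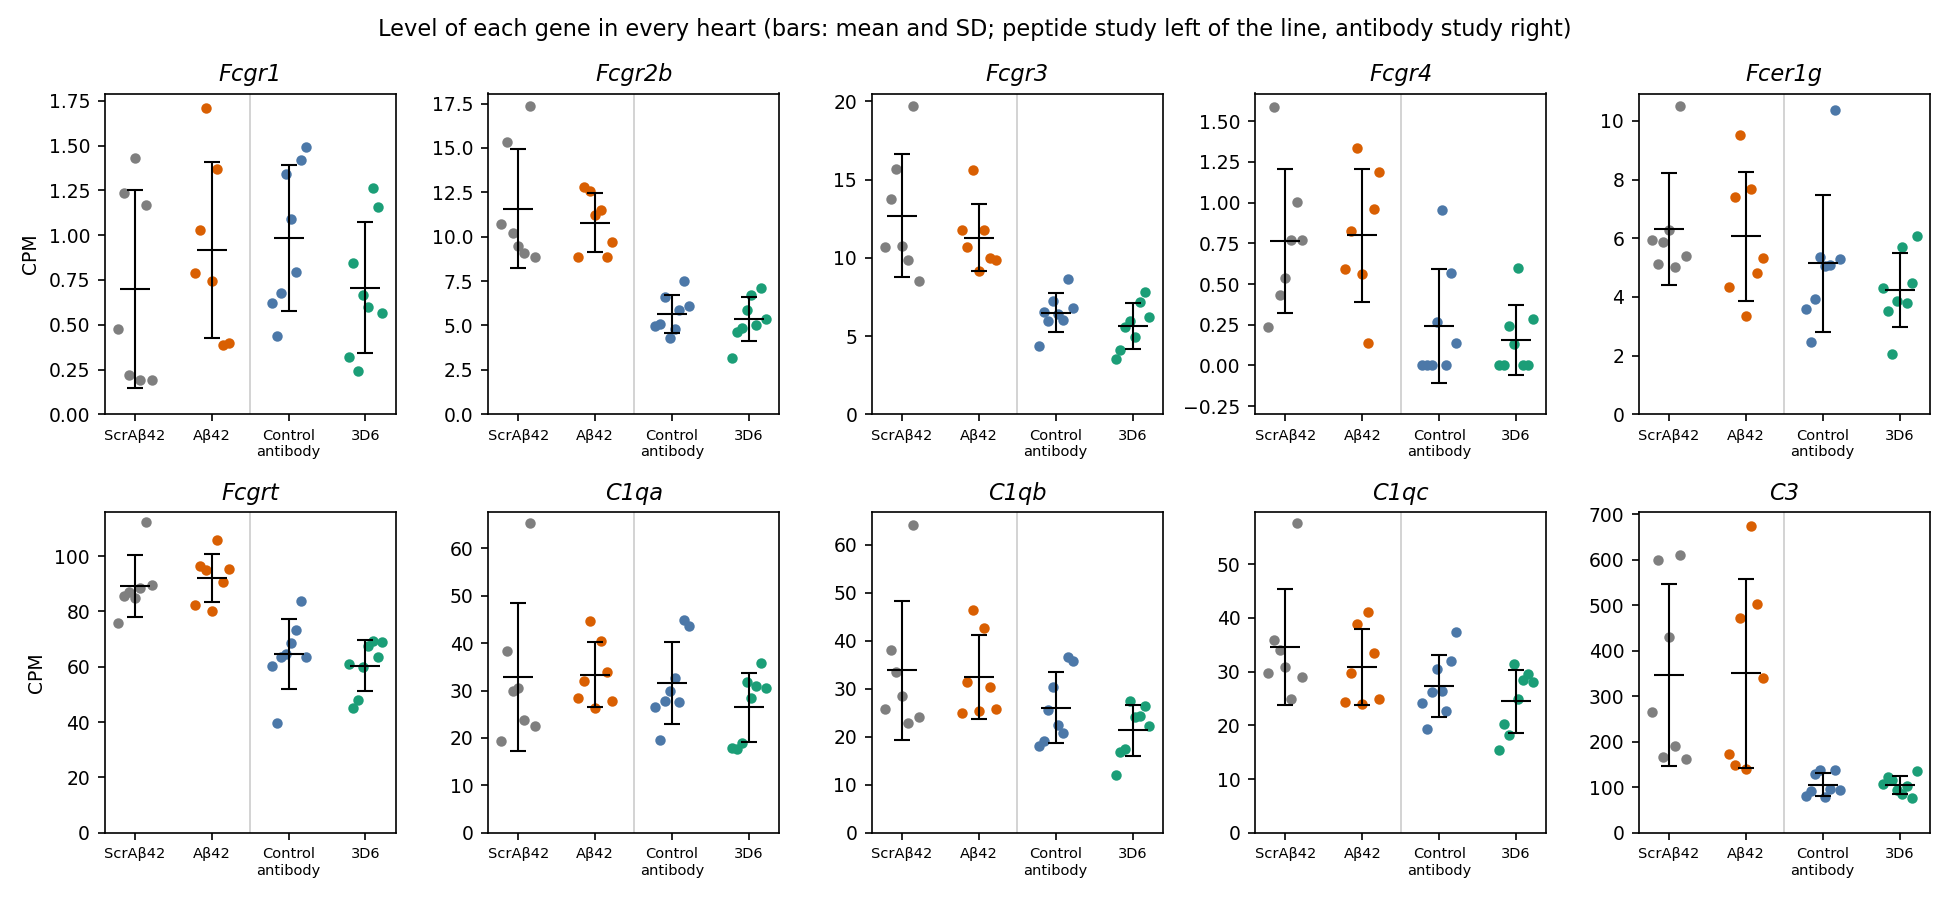
CPM of each of the 10 genes in every heart of the 4 groups; points are hearts, and bars give the mean and SD. The groups of each study overlap for all 10 genes, 1 ScrAβ42 heart is the highest point for *Fcgr2b*, *Fcgr3*, *Fcer1g*, *Fcgrt* and the C1q genes in the peptide study, and 3 hearts given 3D6 lie lowest for *C1qa*.

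Over the members as a whole, 8 of 10 were tested and 0 passed an adjusted p of 0.05 in either study with edgeR, as did 0.0% of the 11985 genes tested with Aβ42 and 0.0% of the 12274 tested with 3D6. At an unadjusted p under 0.05, 0 of 8 members passed in both studies, beside 6.51% of all genes with Aβ42 and 3.64% with 3D6. With DESeq2, 12 genes were called with Aβ42 and 0 with 3D6, and none of the members. The CPM ranges of the groups overlapped for all 10 members in both studies, where 0.0918% of all genes did not overlap with Aβ42 and 0.0% with 3D6. With Aβ42, 3 of the 8 tested members had a log2 fold change above 0 and 5 below, where 49.5% of all genes were below 0, with a median of -0.06 against 0.00 for all genes. With 3D6, 8 of 8 were below 0, beside 52.6% of all genes, with a median of -0.18 against -0.01 for all genes. The 8 values are not all independent. In the antibody study the members other than *C3* moved together from heart to heart (r 0.33 to 0.93 over 21 pairs). *C3* had an r between -0.12 and 0.23 with them. The macrophage markers stood likewise, with 10 of 12 below 0 with 3D6, and so did the endothelial and fibroblast markers, with 6 of 6 each. The summed macrophage markers ranged from 116 to 191 CPM with control antibody (median 150) and from 109 to 175 CPM with 3D6 (median 146). Fewer cells of a type and less RNA of these genes per cell cannot be told apart in such bulk samples. With the mitochondrial share as a covariate, 4 of 8 members were above 0 and 4 below with 3D6, and 0 had an unadjusted p under 0.05, where 4.45% of all genes did. With the atrial markers as a covariate 8 of 8 were below 0 with 3D6, again with 0 under 0.05, where 3.65% of all genes were.

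**Figure D3:**
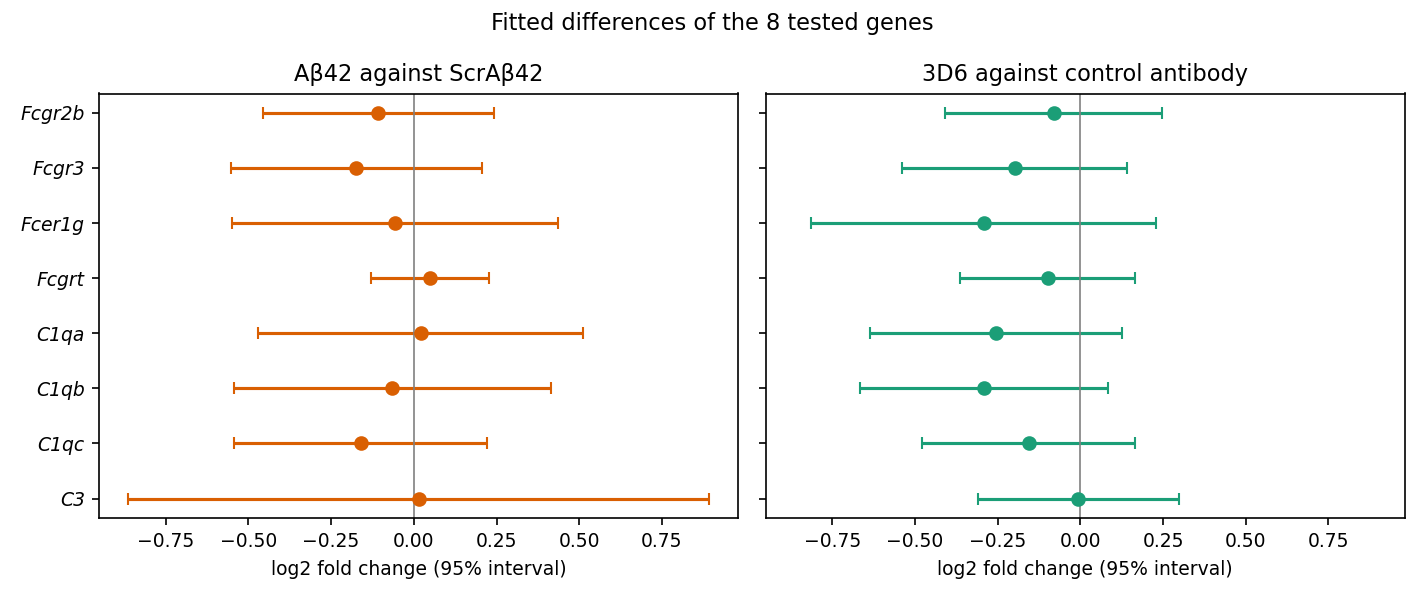
Log2 fold changes of the 8 tested members with their 95% intervals (edgeR), for Aβ42 against ScrAβ42 and for 3D6 against control antibody. Every interval includes 0, the interval of *C3* with Aβ42 is the widest, from -0.86 to 0.89, and all 8 points with 3D6 lie below 0.

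The comparison of the peptide study depended on 1 heart and on the atrial markers. This ScrAβ42 heart was the highest of the 14 for 7 members, *Fcgr2b*, *Fcgr3*, *Fcer1g*, *Fcgrt* and the C1q genes. It held 579 CPM of summed macrophage markers, where the other 13 hearts held 234 to 437 CPM, together with 3652 CPM of atrial markers and 1891 CPM of fibroblast markers. Without it, 7 of 8 members had a log2 fold change above 0 with Aβ42, of which *C1qa* was the largest at 0.28 (standard error 0.16, unadjusted p = 0.106, edgeR adjusted p = 0.559), and 0 had an unadjusted p under 0.05, where 10.6% of all genes did. Without the 5 hearts with over 1000 CPM of atrial markers, 3 of 8 were above 0, and 0 had an unadjusted p under 0.05, where 6.57% of all genes did. With the mitochondrial share as a covariate 2 of 8 were above 0, and 0 had an unadjusted p under 0.05, where 10.5% of all genes did. With a score of the atrial markers as a covariate, 8 of 8 were below 0, and 4 had an unadjusted p under 0.05, where 7.35% of all genes did. These were *C3*, as given above, *C1qc* at -0.48 (standard error 0.13), *Fcgr3* at -0.43 (standard error 0.16) and *C1qb* at -0.42 (standard error 0.17), with edgeR adjusted p between 0.406 and 0.603. For 7 of the 8 tested members the sign of the difference with Aβ42 thus changed with the hearts or the covariate that entered the fit, and *Fcgr3* was below 0 in every fit run.

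The C1q genes rose and fell together from heart to heart. Over the 14 hearts of the peptide study, with each gene centred on its group mean, *C1qa* and *C1qb* had a Pearson r of 0.95 (two-sided permutation p = 1e-05, the smallest that 100000 resamples can give, adjusted p = 8e-05 over the 16 relations computed) and a Spearman rho of 0.89 (permutation p = 0.00015). Without the 2 hearts farthest from the median of *C1qa* r was 0.96. Over the 16 hearts of the antibody study r was 0.88 (permutation p = 6e-05) and rho 0.92 (p = 3e-05), and r was 0.86 without the 2 farthest hearts. *C1qa* and *C1qc* had an r of 0.90 and 0.92 in the 2 studies (rho 0.85 and 0.93), with permutation p of 8e-05 and 1e-05. *C1qa* followed *Csf1r*, the receptor that macrophages need for survival, with an r of 0.88 and 0.87 and a rho of 0.74 and 0.87, and r was 0.87 and 0.89 without the 2 farthest hearts (permutation p of r 0.00037 and 6e-05).

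*Fcgr3* and *Csf1r* had an r of 0.87 in the peptide study (rho 0.78, permutation p of r 0.00043) and 0.61 in the antibody study (rho 0.71, permutation p of r 0.0131), and of 0.95 and 0.51 without the 2 farthest hearts. *Fcer1g* and *C1qa* had an r of 0.70 in both (rho 0.53 and 0.66, permutation p of r 0.00272 and 0.00337). In the peptide study this relation rests on the 2 farthest hearts, without which r was 0.37. *Fcer1g* and *Fcgr3*, chain and receptor, had an r of 0.67 in the peptide study (rho 0.49, permutation p of r 0.00343), which dropped to 0.26 without the 2 farthest hearts, and of 0.33 in the antibody study (rho 0.41, permutation p 0.218). *Fcgrt* and the endothelial gene *Pecam1* had an r of 0.43 and 0.32 (rho 0.20 and 0.44, permutation p of r 0.128 and 0.302), and of -0.25 and 0.41 without the 2 farthest hearts. With counts scaled by the library total instead of TMM, the r of *Fcgrt* and *Pecam1* was 0.75 in the peptide study (permutation p = 0.00563). Counting error adds to the scatter of *Fcer1g*, which had a median of 27 to 34.5 counts per heart in the 4 groups.

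*C3* followed the other members more closely in one study than in the other, a difference that was not tested. Its r with the other 7 tested members lay between 0.45 and 0.73 among the peptide hearts and between -0.12 and 0.23 among the antibody hearts, whereas the 21 pairs without *C3* lay between 0.51 and 0.97 and between 0.33 and 0.93. With the fibroblast gene *Pdgfra*, *C3* had an r of 0.60 (rho 0.63, permutation p of r 0.0285, adjusted p = 0.0380, r 0.59 without the 2 farthest hearts) in the peptide study and 0.34 (rho 0.35, permutation p of r 0.198, 0.62 without the 2 farthest hearts) in the antibody study. The mesothelial gene *Msln* is described for its levels alone, and no r is given for it. In the peptide study the 6 hearts with under 10 CPM of *Msln*, 3 of each group, had between 140 and 191 CPM of *C3*, and the other 8 hearts, at 14.3 to 59.5 CPM of *Msln* and 4 of each group, had between 265 and 675 CPM. The limit of 10 CPM was set after the values were seen, and the part of *Msln* in the level of *C3* was not tested. The antibody hearts had 0 to 6.18 CPM of *Msln*, below 10 CPM in all 16 hearts.

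**Figure D4:**
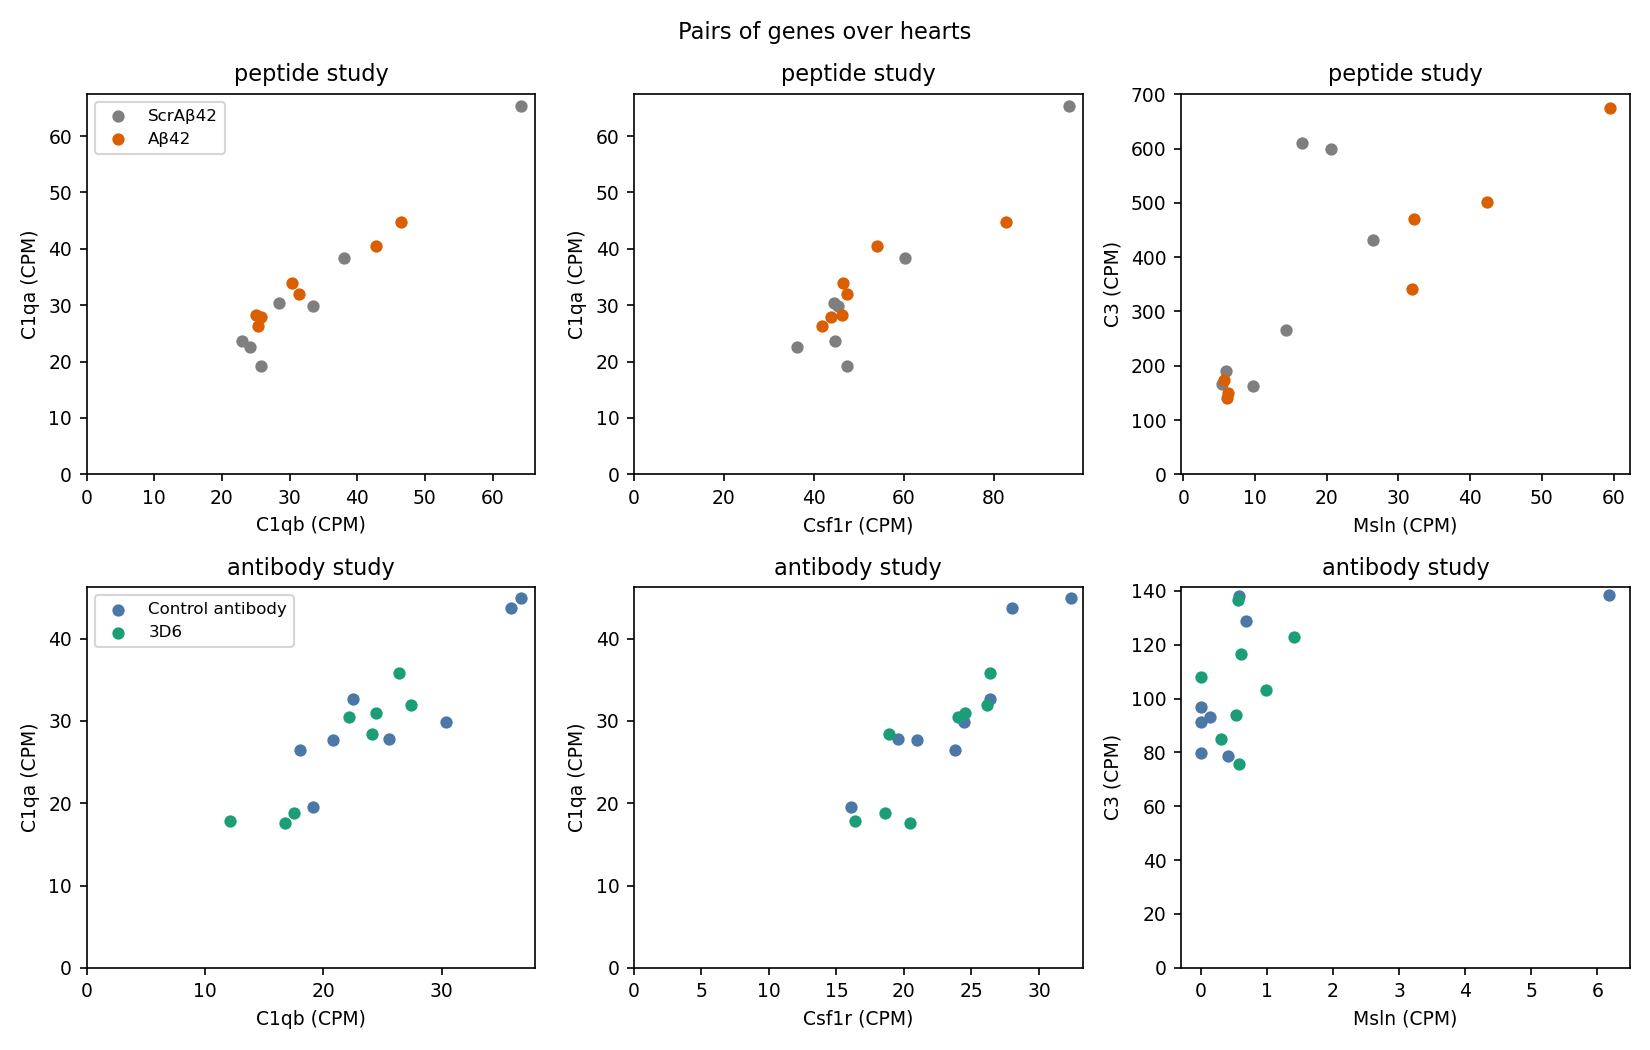
*C1qa* against *C1qb* and against *Csf1r*, and *C3* against *Msln*, all in CPM, with 1 point per heart, for the peptide study (upper row) and the antibody study (lower row). *C1qa* follows *C1qb* (r 0.95 and 0.88) and *Csf1r* (r 0.88 and 0.87) in both studies, and the peptide hearts under 10 CPM of *Msln* are those lowest for *C3*.

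The genes most like the members over hearts were ranked among the 11361 genes tested in both studies, by the lower of the 2 values of r over 14 and 16 hearts, as a description. For *C1qa* they were *Ifitm3* (0.91), *C1qc* (0.90), *Lyz2* (0.90), *C1qb* (0.88) and *Csf1r* (0.87). For *Fcer1g* they were *Pf4* (0.80), *Tpgs1* (0.79), *H3f3b* (0.77), *Cfp* (0.77) and *Cnpy2* (0.76). For *Fcgrt* they were *Akr1a1* (0.81), *Icosl* (0.77), *Sdf4* (0.76), *Fxyd5* (0.76) and *Fcer1g* (0.76). For *C3* they were *Osr1* (0.80), *Igfbp4* (0.80), *Slit3* (0.79), *Fbln1* (0.76) and *Spon1* (0.74).

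Transcripts were given for the antibody study only. The 10 members had 31 annotated transcripts in the table, 13 of which passed the filter, and 0 had an unadjusted p under 0.05, where 2.40% of all 20857 transcripts tested did. *C1qa*, *C1qb* and *Fcgr4* have 1 transcript each, and a single transcript took 99.7% of *Fcer1g*, 99.1% of *C1qc* and 98.2% of *C3*. *Fcgrt* was divided between *Fcgrt-201* (67.3%) and *Fcgrt-203* (29.1%), and *Fcgr2b* between *Fcgr2b-201* (42.9%) and *Fcgr2b-202* (45.6%), all 4 annotated as protein coding. Neither pair differed between the groups beyond its error, with log2 fold changes with 3D6 of -0.05 (standard error 0.14) and -0.18 (standard error 0.23) for *Fcgrt* and -0.27 (standard error 0.32) and 0.18 (standard error 0.28) for *Fcgr2b*.

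For *Fcgr1*, *Fcgr2b* and *Fcgr3* the transcript with most of the estimate was not the same in every heart. *Fcgr2b-201* took from 20.6% to 73.5% of its gene and *Fcgr2b-202* from 13.2% to 79.4%, and the few counts of *Fcgr1* fell on *Fcgr1-201* or, in 1 heart, on *Fcgr1-202* alone. The protein-coding *Fcgr3-201* took 70.7% of the gene's estimate and *Fcgr3-203*, annotated as a retained intron, 23.4%, but in single hearts each took from 0 to 100% of it. With control antibody, *Fcgr3-201* had a lowest, median and highest estimate of 8.04, 44.2 and 61.0 counts, and with 3D6 of 0, 9.07 and 54.0. *Fcgr3-203* had 0, 0 and 20.0 counts with control antibody and 0, 17.2 and 33.0 with 3D6. *Fcgr3-201* was under 1 count in 4 of 8 hearts given 3D6 and in 0 of 8 control hearts, while *Fcgr3-203* was under 1 count in 2 of 8 and in 6 of 8. The log2 fold changes with 3D6 were -1.11 for *Fcgr3-201* (standard error 0.97, interval -3.18 to 0.95) and 2.27 for *Fcgr3-203* (standard error 1.28, interval -0.45 to 4.99, unadjusted p = 0.0964, edgeR adjusted p = 1.00). *Fcgr3-203* averaged 10.1 counts over the hearts and passed the filter only through those given 3D6, so that its p is no evidence of a difference. With protein-coding transcripts alone the log2 fold change of *Fcgr3* was -0.88, against -0.20 for the sum of its transcripts. The value of -0.88 rests on the same division of the estimates between transcripts. Over all fits run, the lowest unadjusted p of *Fcgr3* with 3D6 was 0.103 (edgeR, without 3D6 mouse 21). The transcripts are of like length (1347 and 1298 bases), and how far the estimates divide reads that fit both was not tested.

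**Figure D5:**
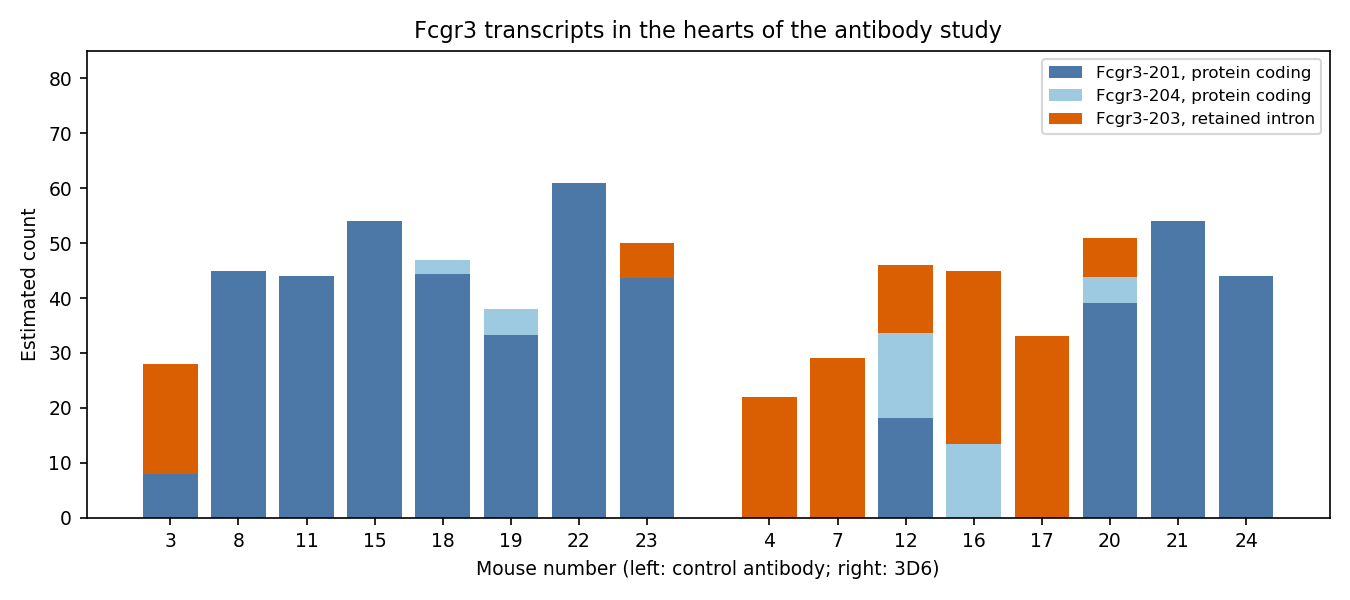
Estimated counts of the *Fcgr3* transcripts in each heart of the antibody study, stacked to the gene's total, with mouse numbers on the horizontal axis. *Fcgr3-201* is estimated at 0 in 4 hearts given 3D6 and above 0 in all 8 control hearts, whereas the totals overlap between the groups.

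Of 72 other genes of Fc receptor signalling and complement, 39 were tested with Aβ42 and 37 with 3D6, and 0 passed an adjusted p of 0.05 in either. With Aβ42, 20 were above 0 and 19 below, with a median log2 fold change of 0.00, and 1 had an unadjusted p under 0.05, where 6.51% of all genes did. This was *Alb*, the gene of the albumin that FcRn recycles, at -3.62 (standard error 1.30, unadjusted p = 0.0132, edgeR adjusted p = 0.692). It was at a median of 0 CPM in both groups, with 0 counts in 4 of 7 ScrAβ42 and 5 of 7 Aβ42 hearts. *Alb* passed the filter on counts only through the ScrAβ42 hearts, where it reached 127 counts (22.4 CPM), against at most 14 with Aβ42. Its p is therefore no evidence of a difference. The others of the 5 smallest p were *Clu*, a fluid-phase complement inhibitor (0.67, standard error 0.36), the kinase gene *Src* (0.50, standard error 0.29), the lectin pathway protease gene *Masp1* (-0.58, standard error 0.34) and the Fc receptor-like gene *Fcrls* (-0.52, standard error 0.32). *Clu* was also the most counted of the 72, at 647 ± 363 CPM with ScrAβ42 and 1026 ± 598 CPM with Aβ42 (SD, n = 7), and *Lrp1*, *Calr* and *B2m* were also among the genes named for their level. With the score of atrial markers in the fit 33 of the 39 were below 0, where 49.1% of all genes were above 0. Of the 39, 12 had an unadjusted p under 0.05, all of them below 0, where 7.35% of all genes did. In this fit *Clu* was at -0.10 (standard error 0.21) and *Src* at -0.00067 (standard error 0.28), and without the ScrAβ42 heart with most macrophage markers *Clu* was at 1.00 (standard error 0.32, unadjusted p = 0.00641, edgeR adjusted p = 0.312). Without that heart 26 of the 39 were above 0 and 13 below, and 3 had an unadjusted p under 0.05, 2 of them above 0, where 10.6% of all genes did. Without the 5 hearts high in atrial markers 10 of 37 were above 0 and 27 below. Of these, 1 above and 2 below had an unadjusted p under 0.05, where 6.57% of all genes did. With the mitochondrial share as a covariate 20 of the 39 were above 0 and 19 below. Again 1 above and 2 below had an unadjusted p under 0.05, where 10.5% of all genes did. The lowest edgeR adjusted p with the atrial score was 0.295, that of *C4b*.

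With 3D6, 32 of the 37 tested were below 0 and 5 above, beside 52.6% of all genes below 0, with a median of -0.12. All 12 tested genes of Fc receptor signalling and all 7 tested complement receptor genes were below 0, and the other complement lists were divided. Of the 37, 2 had an unadjusted p under 0.05, a share near the 3.64% of all genes. *Vtn*, the gene of the terminal complement inhibitor vitronectin, had 19, 22.9 and 30.4 CPM with control antibody and 13.54, 19.3 and 23.5 CPM with 3D6, a log2 fold change of -0.35 (standard error 0.13, unadjusted p = 0.0134, edgeR adjusted p = 0.946). *Cd93*, an endothelial and myeloid surface gene, had 81.7, 95.9 and 130 CPM and 61.0, 84.7 and 93.5 CPM, a log2 fold change of -0.28 (standard error 0.11, unadjusted p = 0.0193, adjusted p = 0.946). The groups overlapped for both. The next smallest p were those of the collectin gene *Colec11* (-0.25, standard error 0.13), of *Syk*, the kinase that the FcRγ chain recruits (-0.17, standard error 0.10), and of the C1 protease gene *C1ra* (-0.17, standard error 0.10). With the mitochondrial share as a covariate 25 of the 37 were below 0, where 50.2% of all genes were above 0, and 2 had an unadjusted p under 0.05, where 4.45% of all genes did. With the score of atrial markers as a covariate 31 of the 37 were below 0. In that fit 3 had an unadjusted p under 0.05, where 3.65% of all genes did.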

How the data were processed

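Left ventricular RNA of 30 mice was sequenced as total RNA. The authors quantified trimmed reads using Salmon, on GENCODE vM24 (GRCm38), and deposited whole-number counts per gene for the peptide study and estimated counts per transcript for the antibody study, neither normalized. The estimated counts, as deposited by the authors, were summed to genes with GENCODE vM21 and rounded, and 1123 transcripts it does not list were kept as features of their own. A further 1 column of the peptide table matched no mouse in the labels and was left out. Members and lists were chosen with earlier results of these data known.

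Each study was fitted separately with edgeR 4.0.16 (R 4.3.3) on genes averaging 10 counts or more, by a two-sided quasi-likelihood test with TMM scaling, and p-values were adjusted after Benjamini and Hochberg over all genes. Log2 CPM used a prior count of 2. Exact permutation tests, and correlations of group-centred values, used scipy 1.17.1. Pathway genes named were those with an adjusted p under 0.05, the 5 with the smallest p and the 5 with the highest mean CPM. Of these, 1 is not reported here. The fit was tested on simulated data. Hearts of a group differed beyond counting error (chi-square over its degrees of freedom 3.59 or more). Limits for a count of 0 cover counting error only. Alternatives were DESeq2 1.42.0, limma-voom, other scalings and filters, covariates, protein-coding transcripts alone, and leaving out each heart.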

Additional observations from a re-analysis of the deposited data

Results flagged for a closer look

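Within a group, 1 heart stood apart from the nearest other by Dixon's test in 8 of 40 groups of values, where chance alone flags about 1 in 20. Of these, 5 were the same ScrAβ42 heart, the one with 579 CPM of summed macrophage markers and 3652 CPM of atrial markers. It had 10.51 CPM of *Fcer1g* (next 6.27 CPM), 112.3 CPM of *Fcgrt* (next 89.7 CPM), 65.26 CPM of *C1qa* (next 38.4 CPM), 64.25 CPM of *C1qb* (next 38.1 CPM) and 57.58 CPM of *C1qc* (next 35.9 CPM). Because these 5 values come from 1 library, they are not separate events. A heart given Aβ42 had 15.61 CPM of *Fcgr3* (next 11.8 CPM). Control antibody mouse 22 had 10.37 CPM of *Fcer1g* (next 5.38 CPM). The heart of 3D6 mouse 17 had 0.599 CPM of *Fcgr4*, which is 4 counts (next 0.282 CPM).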

How the results depend on the processing

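No member passed an adjusted p of 0.05 under any alternative run. In the peptide study DESeq2 called 12 genes, and leaving out 1 heart called 0 to 3. Members higher with Aβ42, 3 of 8 as reported, were 5 of 10 with no filter, 0 with the atrial covariate and 1 to 7 without 1 heart, and the atrial covariate gave 4 members an unadjusted p under 0.05. Members higher with 3D6, 0 of 8 as reported, were 1 with limma-voom, 1 of 10 with no filter, 4 with the mitochondrial covariate and 0 to 1 without 1 heart. With Aβ42 the log2 fold change took the other sign with the atrial covariate for *Fcgrt* (-0.065), *C1qa* (-0.33) and *C3* (-0.85), and without the atrial-marker hearts, an alternative chosen after seeing the data, for *Fcgr2b* (0.071) and *C3* (-0.53). That of *C3* was -0.019 with limma-voom and -0.085 with the mitochondrial covariate. Without 1 heart it ran from -0.16 to 0.018 for *Fcgr2b*, -0.20 to 0.12 for *Fcer1g*, -0.072 to 0.28 for *C1qa*, -0.17 to 0.17 for *C1qb*, -0.25 to 0.011 for *C1qc* and -0.23 to 0.21 for *C3*. With 3D6 the mitochondrial covariate gave 0.013 for *Fcgr2b*, 0.047 for *Fcer1g*, 0.041 for *Fcgrt* and 0.044 for *C3*, and *C3* was 0.0065 with limma-voom, 0.0081 with no filter and -0.068 to 0.066 without 1 heart. With total-count scaling r was 0.75 for *Fcgrt* and *Pecam1* in the peptide study and 0.51 for *C3* and *Pdgfra* in the antibody study, and without the ScrAβ42 heart with most macrophage markers r of *C3* and *Pdgfra* was 0.52 in the peptide study. The cause of these shifts was not tested. No paired analysis was made, because the groups share no mouse numbers and the labels name no pairs. Depth limits *Fcgr1* and *Fcgr4* most, at 11 counts or fewer per heart.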
